A study of Rattus norvegicus with 6 samples.

Results

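The BCL2 family apoptosis regulators were described in RCS cells, a chondrocyte-like line grown from a rat chondrosarcoma, and in neonatal rat rib tissue. Members were chosen by symbol, as the table entries named for 1 of 10 genes: Bcl2, Bcl2l1, Mcl1, Bax, Bak1, Bad, Bid, Bik, Bcl2l11 and Bbc3. Of these, 9 genes matched, with 10 entries among 27217, since Bcl2l1 was carried by 2 entries. Mcl1 is not analysed here. RNA sequencing gave 3 RCS libraries and 3 rib libraries, and the labels give no treatment, strain or sex for either group. RCS cells are 1 established line, whereas a piece of rib holds cartilage, bone, muscle, blood and other cells, so the comparison is of a line with a mixed tissue. In such bulk samples, fewer cells of a type and less RNA per cell cannot be told apart. The replicates are called biological in the series' design text without naming cultures or animals, so p-values measure the spread between these libraries, which may be technical.

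BCL2 family proteins set whether the outer membrane of the mitochondrion stays closed. The survival proteins BCL2, BCL-XL and MCL1 bind and restrain the effectors BAX and BAK, which otherwise form pores and release cytochrome c, and the BH3-only proteins relay stress by binding the survival proteins or the effectors. In the mouse growth plate, Bcl2 acts downstream of parathyroid hormone-related protein, and its loss speeds the maturation of chondrocytes.

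By estimate, RCS libraries held 6000000 to 8520000 gene-assigned reads and rib libraries 5320000 to 7490000. The labels were checked against marker genes. The summed normalized counts of 7 chondrocyte markers were 50700 to 69700 in RCS libraries, against 96700 to 164000 in rib libraries. Of these 7, 1 was higher, 2 were lower and 4 neither, and the gap in the sum was mostly Col2a1 (14100 on average in RCS cells against 88700 in rib tissue). Those of 5 skeletal muscle markers were 12.2 to 20.8 in RCS libraries, against 15200 to 26900 in rib libraries, those of 4 endothelial markers 1.63 to 9.92 in RCS libraries, against 1860 to 2920 in rib libraries, and those of 5 myeloid markers 20.1 to 27.3 in RCS libraries, against 495 to 1130 in rib libraries. All 5 muscle, 4 endothelial and 5 myeloid markers were lower in RCS cells, and Myog, Cdh5, Kdr, Tie1, Ptprc, Itgam and C1qa were listed at 0 in every RCS library. The 5 markers of cycling cells were all higher in RCS cells, summing to 7120 to 8190 against 3030 to 3670 in rib tissue. The part of this tissue make-up and of cycling in the differences given here was not tested.

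Levels below are normalized counts, meaning reads divided by 1 factor per library. They are not divided by gene length, so levels are compared between groups and not between genes. Differences are RCS cells minus rib tissue of log2(normalized count + 1), a scale that understates the change of low genes. To be tested, an entry had to reach a normalized count of 1 in 3 or more libraries. All 10 entries did, and all 10 were above 0 in all 6 libraries.

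Bcl2 and Bcl2l1, survival genes that were both higher in RCS cells, are shown by the 250 bases before their RefSeq transcript starts (assembly GRCr8), 1 stretch for Bcl2 and 2 of the 4 for Bcl2l1, because the series title places the study in work on SOX factors, whose core letters could be looked for there. Capitals mark the core letters ACAAT or their reverse complement ATTGT, which were chosen after the stretches had been seen. The stretches run 5′ to 3′ on the minus strand.
Bcl2, chr13:23366901-23367150: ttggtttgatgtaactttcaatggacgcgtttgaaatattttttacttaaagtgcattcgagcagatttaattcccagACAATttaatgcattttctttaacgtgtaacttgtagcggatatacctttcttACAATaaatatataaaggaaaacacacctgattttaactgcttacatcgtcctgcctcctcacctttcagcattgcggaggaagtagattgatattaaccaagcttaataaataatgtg
Bcl2l1, chr3:161764776-161765025: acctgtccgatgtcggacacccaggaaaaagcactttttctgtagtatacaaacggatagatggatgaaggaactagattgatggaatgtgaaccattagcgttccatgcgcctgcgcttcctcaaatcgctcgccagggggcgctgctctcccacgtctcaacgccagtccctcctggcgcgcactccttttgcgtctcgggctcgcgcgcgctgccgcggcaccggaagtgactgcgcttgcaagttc
Bcl2l1, chr3:161763386-161763635: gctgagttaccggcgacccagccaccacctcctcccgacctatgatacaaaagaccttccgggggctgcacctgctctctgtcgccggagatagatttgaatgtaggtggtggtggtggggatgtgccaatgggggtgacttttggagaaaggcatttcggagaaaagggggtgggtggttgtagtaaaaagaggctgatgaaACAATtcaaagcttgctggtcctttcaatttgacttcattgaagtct

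The Bcl2 stretch held the core at 2 places and was 33.6% G and C, against a median of 51.2% over 33469 promoter stretches of the same length. The upper Bcl2l1 stretch held no core and 23 CG dinucleotides, and the lower 1 held 1 core and 7. Stretches were found for 6 of the 9 measured genes, 9 in all (some of Bcl2l1 overlap), and 4 held the core, against 30% of all stretches. These 4 came from 3 genes, because overlapping stretches of Bcl2l1 held the same core. The GC box letters GGGCGG or CCGCCC were in 3 stretches, those of Bak1, Bcl2l11 and Bid, against 30.5% of all stretches. Both motifs were chosen after the stretches had been seen, so the shares of all stretches cannot test for an excess. A match of so few letters describes the sequence and does not mark a bound site.

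Both survival genes measured among the members, Bcl2 and Bcl2l1, were higher in RCS cells, and on the deposited scale Bcl2 had the largest difference among the members. Bcl2, the founding member, had 1038, 997 and 953 normalized counts in RCS cells replicates 1 to 3, against 291, 362.5 and 393 in rib tissue replicates 1 to 3. Every RCS library lay well above every rib library, and the values rest on an estimated 1345 to 1921 reads in RCS cells, against 353 to 393 in rib tissue. The log2 level was 9.96 ± 0.06 in RCS cells against 8.44 ± 0.22 in rib tissue (SD, n = 3 each), which is a difference of 1.52 (SE 0.12, 95% interval 1.26 to 1.79), or 2.87-fold, with a limma adjusted p (Benjamini-Hochberg over 16809 genes) of 6.3e-06. This difference was above that of 92.8% of the genes tested, and its size without regard to sign was above that of 65.0%. It ran from 1.40 to 1.81 over 17 alternatives and was called in each of them, with limma adjusted p (Benjamini-Hochberg) from 6.06e-07 to 0.000545.

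Bcl2l1 encodes BCL-XL, a survival protein, and its main entry (ENSRNOG00000007946) had 297, 293 and 236 normalized counts in RCS cells, against 207, 189 and 164.5 in rib tissue. There was no overlap, although RCS cells replicate 3 lay nearer to rib tissue replicate 1 than to the other RCS libraries. Its level was 8.10 ± 0.18 in RCS cells and 7.55 ± 0.16 in rib tissue (SD, n = 3 each), so that the difference was 0.56 (SE 0.13) with a limma adjusted p (Benjamini-Hochberg) of 0.00416. The second entry (ENSRNOG00000018503), which the table describes as another isoform, had 36.5, 33.9 and 37.1 normalized counts in RCS cells, against 22.5, 23.4 and 18.8 in rib tissue. It also did not overlap between the groups, with a difference of 0.71 (SE 0.20, limma Benjamini-Hochberg adjusted p 0.0113) that grew to 2.46 under quantile normalization and 1.63 under cyclic loess. How reads were divided between the entries is not given in the sources used here, so each entry is uncertain on its own. Summed, the entries differed by 0.58. Over the alternatives the main entry ran from 0.33 to 0.85 and stayed called, with limma adjusted p (Benjamini-Hochberg) from 0.000364 to 0.0426.

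**Figure D1:**
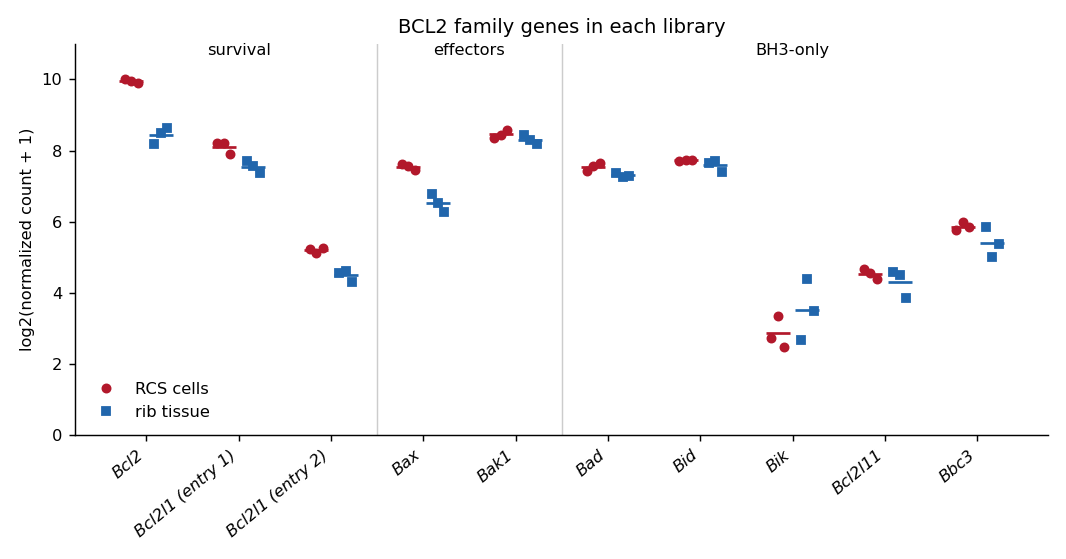
Level of each BCL2 family entry in each library, as log2(normalized count + 1) on the vertical axis, with red circles for RCS cells, blue squares for rib tissue and a bar at each mean (n = 3). Bcl2, both Bcl2l1 entries, Bax and Bad do not overlap between the groups, and Bik and Bcl2l11 have low counts in both.

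Of the effectors, Bax was higher in RCS cells and Bak1 did not pass the test. Bax, which forms the mitochondrial pore, had 195, 187 and 174 normalized counts in RCS cells, against 108, 91.2 and 76.3 in rib tissue. Every RCS library exceeded every rib library, and rib tissue replicate 1 was the highest of its group. Its level was 7.54 ± 0.08 in RCS cells and 6.52 ± 0.25 in rib tissue (SD, n = 3 each), so that the difference was 1.02 (SE 0.14, 95% interval 0.69 to 1.35), or 2.03-fold, with a limma adjusted p (Benjamini-Hochberg) of 0.000255, and it ran from 0.82 to 1.46 over 17 alternatives, called in each.

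Bak1, the other effector, had 327.5, 346 and 381.5 normalized counts in RCS cells, against 344, 314 and 292 in rib tissue. The groups overlapped. Its difference was 0.15 (SE 0.10, 95% interval -0.07 to 0.38), with a limma adjusted p (Benjamini-Hochberg) of 0.185, and it was -0.03 under cyclic loess and 0.44, called, under median scaling.

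None of the 5 BH3-only genes passed the test. Bad, which binds BCL2 and BCL-XL when it is not phosphorylated, had 171, 186 and 198.5 normalized counts in RCS cells, against 165, 151 and 155 in rib tissue. All RCS values lay above the rib values, but by little, with a difference of 0.24 (SE 0.10, limma Benjamini-Hochberg adjusted p 0.0602). It was called in 6 of 17 alternatives, among them quantile normalization (0.41), median scaling (0.53) and the fit without rib tissue replicate 1 (0.27), and it was 0.00283 under cyclic loess.

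Bid, which is cut by caspase 8 and so links death receptors to mitochondria, was the steadiest member in RCS cells at 208, 211 and 213 normalized counts, against 200.3, 209 and 166 in rib tissue. The groups overlapped, with a difference of 0.14 (SE 0.11, 95% interval -0.11 to 0.39), which was -0.09 under cyclic loess and 0.43, called, under median scaling. Bbc3 encodes PUMA, a BH3-only protein, and had 53.01, 62.4 and 56.2 normalized counts in RCS cells, against 57.0, 30.8 and 40 in rib tissue. Only rib tissue replicate 1 reached the RCS range, and the difference was 0.46 (SE 0.24, limma Benjamini-Hochberg adjusted p 0.113). Bbc3 was called without that library (0.69) and under array weights (0.64), cyclic loess (0.71), median scaling (0.75) and quantile normalization (1.73).

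Bcl2l11 encodes BIM, which binds every survival member and activates the effectors, and its counts were low in both groups. It had 24.2, 22.5 and 19.7 normalized counts in RCS cells, against 22.9, 21.5 and 13.4 in rib tissue, an overlap of the groups. Its difference was 0.22 (SE 0.27, 95% interval -0.40 to 0.84). It was -0.01 without rib tissue replicate 3 and was called at 2.16 under quantile normalization and 1.51 under cyclic loess. Bik, another BH3-only gene, had on average the fewest normalized counts of the members, which are not divided by gene length. They were 5.61, 9.11 and 4.58 in RCS cells, against 5.31, 19.9 and 10.1 in rib tissue. These are an estimated 6.5 to 17.5 reads in RCS cells, against 7.0 to 19.4 in rib tissue, and the difference did not pass the test (-0.66, SE 0.47, 95% interval -1.73 to 0.42). The sign of the Bik difference turned under quantile normalization (1.83) and cyclic loess (1.11), both called.

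Counted together, 4 of 10 entries (40%), or 3 of 9 genes (33.3%), were higher in RCS cells and 0 were lower, while 32.9% of all genes tested were called higher and 43.6% lower. The share of members called higher was thus near that of all genes. By role, 3 of 3 survival entries, 1 of 2 effectors and 0 of 5 BH3-only genes were called higher. The 3 survival entries are 2 genes, because Bcl2l1 has 2 entries. The groups did not overlap at 5 of 10 entries, against 78.9% of all genes, and 2 of 10 entries (Bcl2 and Bax) were called at 2-fold or more, against 47.2% of all genes. At an unadjusted p under 0.05 no member was lower, and no alternative called a member lower. The median difference was 0.71 for survival entries, 0.59 for effectors and 0.22 for BH3-only genes. It was 0.35 for all 10 entries, against -0.15 for all genes tested. The survival median is the value of the second Bcl2l1 entry, which is uncertain on its own. Another scaling moved these counts. There were 8 entries called higher under quantile normalization and under median scaling and 7 under cyclic loess, where 47.6%, 42.5% and 37.1% of all genes tested were called higher. The entries gained were Bad, Bik, Bcl2l11 and Bbc3 under quantile normalization and Bak1, Bad, Bid and Bbc3 under median scaling. Cyclic loess added Bik, Bcl2l11 and Bbc3. The split by role thus depended on the scaling.

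**Figure D2:**
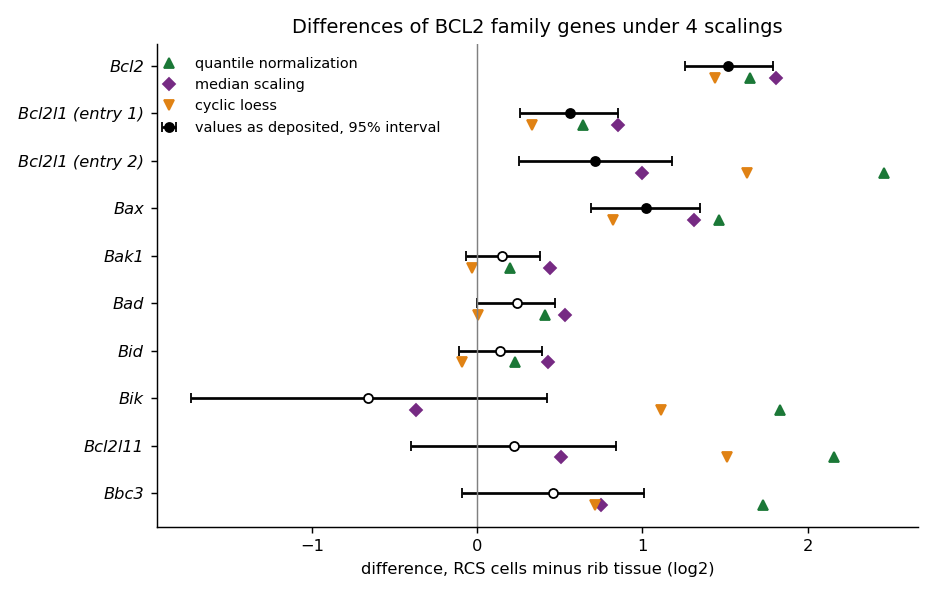
Difference of each entry, RCS cells minus rib tissue on a log2 scale, with its 95% interval in black (filled circles passed the test, open circles did not) and the difference under 3 other scalings in colour. Bcl2, Bax and the main Bcl2l1 entry lie right of 0 under every scaling, while Bik crosses 0.

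The balance of a survival gene against a death gene was followed as the ratio of their normalized counts, each plus 1, within a library. Apart from the added 1, this ratio does not move when a library is divided by another factor. For Bcl2l1 the main entry alone was used. The ratio is not molar, and only its difference between groups is read. For Bcl2 to Bax the log2 ratio was 2.41, 2.41 and 2.44 in RCS cells, against 1.42, 1.98 and 2.35 in rib tissue. RCS libraries were nearly alike, and rib libraries spread so widely that replicate 3 came close to them. The mean difference was 0.50 (SE 0.27), and 0.26 without rib tissue replicate 1.

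For Bcl2l1 to Bax the order turned round. The log2 ratio was 0.61, 0.64 and 0.43 in RCS cells, against 0.93, 1.04 and 1.10 in rib tissue, differing by -0.46 (SE 0.08) with no overlap. For Bcl2l1 to Bad it was 0.79, 0.65 and 0.25 in RCS cells, against 0.33, 0.32 and 0.09 in rib tissue, overlapping groups with a difference of 0.32 (SE 0.18). In two-sided exact permutation tests the p was 0.1 for Bcl2 to Bax, 0.1 for Bcl2l1 to Bax and 0.3 for Bcl2l1 to Bad (0.15, 0.15 and 0.3 after Benjamini-Hochberg adjustment over the 3 ratios), and 0.1 is the smallest that 3 libraries against 3 allow, so none of the 3 ratios could pass a threshold of 0.05. Quantile normalization, which moves genes unequally, gave 0.20, -0.82 and 0.23 for the 3 ratios in the same order, and cyclic loess gave 0.63, -0.49 and 0.33, both chosen after seeing the data.

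**Figure D3:**
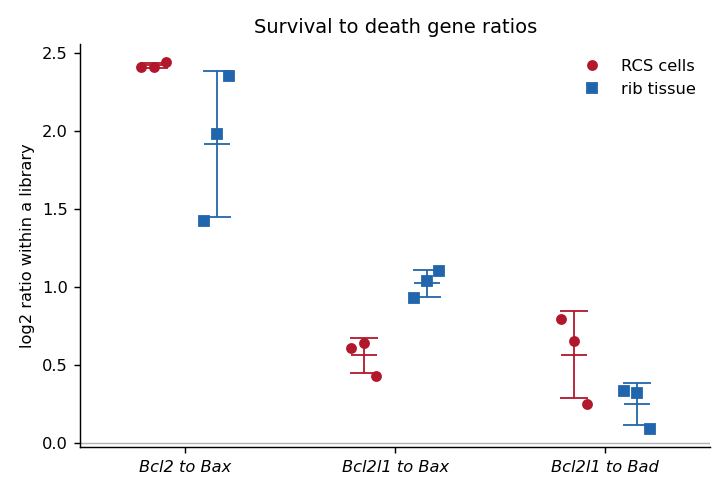
Log2 ratio of the normalized counts, each plus 1, of a survival gene to a death gene within each library, with the main entry for Bcl2l1. Red circles are RCS cells, blue squares are rib tissue, and bars are mean and SD (n = 3). Bcl2 to Bax is 2.41 to 2.44 in RCS cells, against 1.42 to 2.35 in rib tissue, and Bcl2l1 to Bax is lower in RCS cells.

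Rib libraries differed among themselves in several members. Bax was highest in replicate 1 and lowest in replicate 3, and Bcl2 was lowest in replicate 1 and highest in replicate 3. The summed muscle markers were 26900, 23800 and 15200 in rib tissue replicates 1 to 3, and the summed erythroid markers 610, 457 and 139. Osteoblast (59500, 33200 and 25100), fibroblast and neutrophil sums fell in that order too. Schwann and nerve markers rose (1870, 2270 and 2490), and the other marker lists followed neither order. The part of tissue make-up in the spread of Bax and Bcl2 was not tested. Lymphoid cells are known to express Bcl2. Of 5 lymphoid markers, 3 were tested, of which 2 were higher in RCS cells (Cd79a at 15.5 on average against 1.29 in rib tissue, and Vpreb1), while 2 were listed at 0 in every RCS library. The sum over the 5 was 433 to 439 in RCS cells, against 328 to 370 in rib tissue, most of it from Vpreb1. The part of these markers in the Bcl2 difference was not tested.

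Among the genes whose pattern over the 6 libraries lay nearest to that of Bcl2, by Euclidean distance between log2 levels centred on each gene's own mean, were the nucleolar gene Nol11 (distance 0.173) and Nudcd1 (0.179). Their differences were 1.42 and 1.51. With 3 libraries in each of 2 groups, such likeness mostly restates the group difference. No member was called lower, so no gene was matched to one.

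Most other BCL2 family genes were lower in RCS cells. Of 11 further BCL2 family genes tested, 1 was higher in RCS cells, 8 were lower and 2 neither, against 32.9% higher and 43.6% lower over all genes, with a median difference of -0.94 (3 higher and 6 lower under quantile normalization, 4 and 6 under cyclic loess). Bcl2a1, a survival gene of blood cells, was listed at 0 in every RCS library, against 19.0, 20.7 and 12.0 normalized counts in rib tissue. Bok, a BAX relative, had 12.0, 13.2 and 17.01 in RCS cells, against 106, 61.2 and 80.05 in rib tissue. It differed by -2.45 (SE 0.26). Bnip3l, a mitophagy receptor, was lower by more than 2-fold (285 against 692 normalized counts on average, difference -1.28, SE 0.09). Bcl2l2, the survival gene for BCL-W, was lower at 8.52 ± 0.05 in RCS cells against 8.89 ± 0.15 in rib tissue (SD, n = 3 each), a call lost under median scaling (-0.08). By limma with Benjamini-Hochberg adjustment, the adjusted p was 4.3e-05 for Bok, 3.14e-06 for Bnip3l and 0.00627 for Bcl2l2. Bcl2a1, Pmaip1 and Bcl2l14 were listed at 0 in every RCS library, were tested only because of rib tissue and had no way to be higher, and with them at the listing limit of 1 normalized count the median was -0.85. Without the genes at 0 in every RCS library, 5 of 8 were lower, against 5377 of 14862 over all genes. Myeloid markers were lower in RCS cells as well, and their part in the Bcl2a1 result was not tested.

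Downstream of the family, genes of the apoptosome and of mitochondrial release were called in 1 direction. RCS cells had 9 of the 16 tested at a higher level and 0 at a lower one, while 7 did not pass, against 32.9% higher and 43.6% lower over all genes, with a median difference of 0.31 (11 higher under quantile normalization and median scaling, 6 under cyclic loess, 0 lower under each). Casp6, an executioner caspase, had 197, 180.1 and 176 normalized counts in RCS cells, against 54.5, 59.8 and 47.4 in rib tissue (difference 1.76, SE 0.13). Htra2, a mitochondrial protease that blocks caspase inhibitors once released, differed by 1.01 (SE 0.10). The channel gene Vdac3 differed by 0.54 and Vdac2, which binds BAK in the mitochondrial membrane, by 0.19, a call lost in 6 alternatives, among them the fits without each RCS library in turn. By limma with Benjamini-Hochberg adjustment, the adjusted p was 6.31e-06 for Casp6, 2.44e-05 for Htra2, 0.00054 for Vdac3 and 0.0288 for Vdac2.

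The inhibitor of apoptosis genes split, with 2 higher, 2 lower and 2 neither of 6 tested (5 higher and 1 lower under quantile normalization). Birc5, which encodes survivin and is also a gene of dividing cells, had 313, 301 and 353 normalized counts in RCS cells, against 91.8, 91.7 and 82.3 in rib tissue (difference 1.85, SE 0.11), and the cycling markers were higher in RCS cells as well. Xiap, which blocks caspases directly, was lower, at 371 against 637 on average (difference -0.78, SE 0.07). Birc6, a very large inhibitor gene, was lower by -0.70 but turned to 0.18, called, under quantile normalization. By limma with Benjamini-Hochberg adjustment, the adjusted p was 1.36e-06 for Birc5, 2.41e-05 for Xiap and 0.000201 for Birc6.

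Of 11 death receptor pathway genes, 4 were higher, 5 lower and 2 neither (5 higher and 1 lower under quantile normalization, 5 and 3 under median scaling, 4 and 3 under cyclic loess). The ligand gene Tnfsf10, for TRAIL, had 3.94, 4.86 and 2.06 normalized counts in RCS cells, against 19.5, 24.95 and 27.6 in rib tissue. The difference of -2.48 was no longer called under quantile normalization (-0.10) and cyclic loess (-0.78). Faslg was near the listing limit in both groups (0 to 2.83 in RCS cells, 4.55 to 5.64 in rib tissue), and its difference of -1.61 turned positive under quantile normalization (0.91) and cyclic loess (0.66) and was not called without rib tissue replicate 2 (-1.54). Tnfrsf1a, a TNF receptor gene, did not pass (0.06, SE 0.09), and the call of Ripk1, a kinase of that receptor's complex (-0.32, SE 0.12), was lost in 10 alternatives, among them the fits without each RCS library in turn and without rib tissue replicate 2 or 3. By limma with Benjamini-Hochberg adjustment, the adjusted p was 0.000168 for Tnfsf10, 0.0144 for Faslg, 0.598 for Tnfrsf1a and 0.0429 for Ripk1.

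Of 12 genes of the DNA damage response, which can induce Bax and Bbc3, 5 were higher, 5 lower and 2 neither. Over all genes, 32.9% were higher and 43.6% lower. Quantile normalization gave 6 higher and 2 lower of the 12. Mdm2, a ubiquitin ligase that holds this response in check, had 856, 931 and 942 normalized counts in RCS cells, against 463, 474 and 475 in rib tissue (difference 0.95, SE 0.07). Its relative Mdm4 was lower (difference -0.88, SE 0.10). Perp and Tp73 were listed at 0 in every RCS library and had at most 6.06 and 3.94 normalized counts in a rib library. They were tested only because of rib tissue, and without them 5 genes were higher and 3 lower. By limma with Benjamini-Hochberg adjustment, the adjusted p was 6.63e-06 for Mdm2 and 8.67e-05 for Mdm4.

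Of 19 genes that act on BCL2 family proteins or transcripts, 8 were higher, 7 lower and 4 neither. Over all genes, 32.9% were higher and 43.6% lower. For the 19, quantile normalization gave 10 and 7, median scaling 9 and 6, and cyclic loess 7 and 8. Foxo3, a transcription factor that can induce Bcl2l11 and Bbc3, had 238, 244 and 216 normalized counts in RCS cells, against 1247, 1048 and 1188 in rib tissue (difference -2.31, SE 0.09), while neither of those members passed the test. Pim2, a kinase that phosphorylates BAD, had 27.8, 31.9 and 40.7 in RCS cells, against 7.96, 2.05 and 3 in rib tissue (difference 2.83, SE 0.42). Its relative Pim1 went the other way, at 55.4 on average in RCS cells against 142 in rib tissue (difference -1.34, SE 0.14). Huwe1, a ubiquitin ligase of MCL1, and Usp9x, which removes ubiquitin from MCL1, were both lower, with differences of -1.09 and -1.10. By limma with Benjamini-Hochberg adjustment, the adjusted p was 2e-07 for Foxo3, 0.000326 for Pim2, 1.04e-05 for Huwe1 and 7.48e-06 for Usp9x. Over the 6 lists, 29 of 75 genes tested were higher and 27 lower, against 32.9% higher and 43.6% lower over all genes. The median difference was -0.09, against -0.15 for all genes. Of the 27 lower, 5 were at 0 in every RCS library and were tested only because of rib tissue. Quantile normalization gave 40 higher and 17 lower over the lists, median scaling 34 and 22, and cyclic loess 28 and 23.

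**Figure D4:**
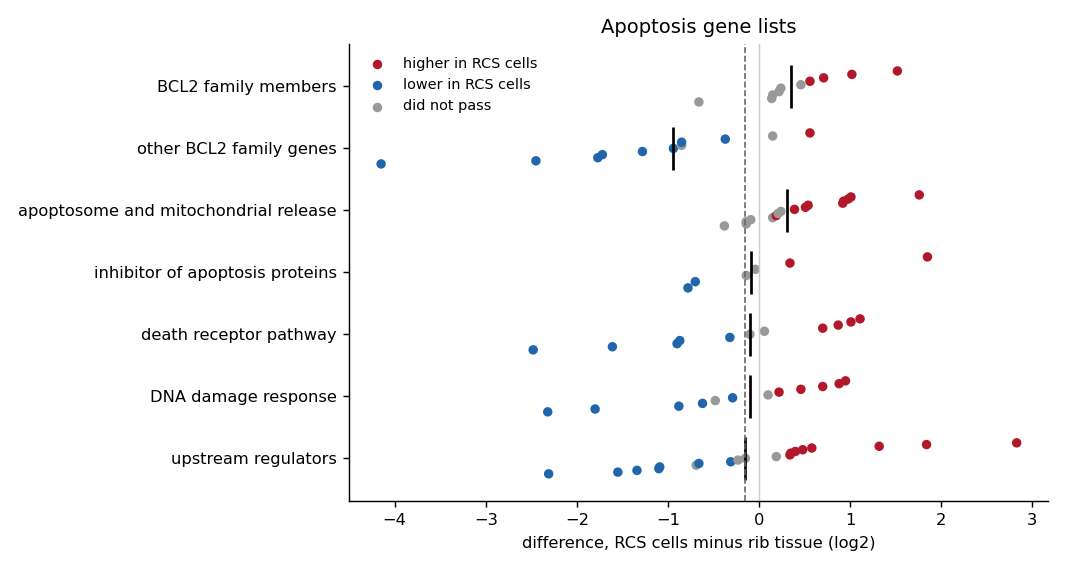
Difference of each tested gene, RCS cells minus rib tissue on a log2 scale, by list. Red points were higher in RCS cells, blue points lower, and grey points did not pass the test; black bars are list medians and the dashed line is the median of all genes tested (-0.15). The other BCL2 family genes lie mostly left of 0 and the apoptosome genes mostly right of it.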

How the data were processed

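Per the labels, total RNA of 3 libraries of RCS cells and 3 of rib tissue was sequenced with standard Illumina library preparation. The authors deposited 1 table of log2 values. These were read, from their shared steps, as log2 normalized counts (reads over 1 factor for each library), 0 standing for anything up to 1, although the table's name speaks of RPKM. Per the submitters' processing notes, CASAVA 1.8, DESeq and build rn5 were used, in roles not stated. Neither aligner, counting rule nor strand use is stated there (not given in the sources used here). In a library, 38.7% to 55.6% of values up to 10 reads were whole to within 0.01 read, so no count model was used.

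Groups came from the titles. The test was limma 3.58.1 (R 4.3.3; two-sided, with an intensity trend) with a pseudocount of 1, run on the 16809 genes that reached a normalized count of 1 in 3 or more libraries. A call is a Benjamini-Hochberg adjusted p under 0.05. The fit was tested on simulated data. Of 145 names in all lists, 137 matched by symbol and 4 through Entrez identifiers. Promoter stretches are RefSeq's (GRCr8), matched by symbol, and the motif letters were chosen after the stretches had been seen. Besides the members, the text names in each list the 2 called genes with the largest difference and the 2 with the highest mean, and the 3 genes nearest in pattern to the most raised member. Some of these are not reported here. Members and lists were chosen with earlier results of these data known. The ratios with Mcl1 were not analysed here.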

Additional observations from a re-analysis of the deposited data

How the results depend on the processing

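Over 16 other settings and 1 chosen after seeing the data (the Bcl2l1 entries summed), Bcl2, Bax and the main Bcl2l1 entry kept their direction and their call, and the second Bcl2l1 entry did so over the 16. The count of members called higher was 4, and 8 under quantile normalization, 8 under median scaling and 7 under cyclic loess. It was 4 to 6 when 1 library was left out, the 6 without rib tissue replicate 1, 6 under array weights, 5 with no filter, 5 with a pseudocount of 0.1 and 3 with the Bcl2l1 entries summed. The Bcl2l1 to Bax ratio differed by -0.46, and by -0.82 under quantile normalization, tried for the ratios after seeing the data. The count of pathway genes called lower was 27, and 17 under quantile normalization. Calls over all genes were 5536 higher and 7324 lower (43.0% higher), against 8000 and 4924 (61.9%) under quantile normalization, 6242 and 6206 (50.1%) with cyclic loess and 7143 and 6220 (53.5%) with median scaling. The typical gene shifted by 0.52 with quantile normalization and 0.29 with median scaling, and small differences hold only relative to that. Signs turned under cyclic loess for Bak1 (-0.03), Bid (-0.09), Bik (1.11), Faslg (0.66), Tnfrsf1a (-0.08), Perp (0.16) and Tp73 (0.77), under quantile normalization for Bik (1.83), Birc6 (0.18), Faslg (0.91) and Tp73 (0.30), and without rib tissue replicate 3 for Bcl2l11 (-0.01 to 0.35 with 1 library left out) and Tnfrsf1a (-0.01 to 0.13); the cause was not tested. With the replicate block, 4 members were called higher, and 5536 genes were higher and 7340 lower; deviations of same-numbered libraries correlated at -0.08 to 0.06, so the numbers were not taken to pair the libraries. Bik rests on the fewest estimated reads among the members.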
